A study of Mus musculus with 15 samples.

Results

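Microvessels from the tumour region of mice given triple therapy were compared with contralateral microvessels, isolated opposite the tumour in animals that received control IgG. The comparison holds 6 of the 15 libraries of the study, 3 in each group. It covers 19668 of the 27174 genes of the deposited table, those that reached a score of 10 in 3 or more of the 15 libraries. The animals were adult wild-type (WT) BL6/57 mice with an orthotopic glioblastoma, vessels were taken 21 days after the tumour cells were transplanted, and each library pools 3 mice. Triple therapy combined Aflibercept, a soluble fusion protein that traps VEGF, AMG386, a peptide fusion that keeps angiopoietins from their receptor Tie2, and anti-PD1, an antibody against the T cell receptor PD-1. The contralateral mice received no drug other than control IgG, so tumour region and drugs differ together and cannot be told apart in this comparison. Whether both hemispheres came from the same mice, the tumour cell line and the doses are not given in the sources used here, and the contralateral hemisphere of drug-treated mice was not analysed here. For context, values are also given from sham operated mice without tumour, from tumour tissue of IgG controls (untreated tumour) and from tumour tissue after Aflibercept and AMG386 without the antibody (dual therapy), again 3 pools each.

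Brain capillaries form the blood-brain barrier: their endothelial cells are sealed by tight junctions, carry nutrient and efflux transporters, hold few transport vesicles, and keep these traits through Wnt/beta-catenin signals and contact with pericytes. In glioblastoma, VEGF and angiopoietin-2 promote sprouting and leaky vessels, which are also the route by which leukocytes enter. T cells and NK cells that enter can release interferon gamma, which switches on guanylate-binding proteins, MHC genes and Cd274, the gene of the PD-1 ligand PD-L1.

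The values are scores, read counts that the authors scaled for each library and rounded. Differences below are of log2(score + 1) between group means, with the standard error (SE) of a limma fit over all 15 libraries, and they understate the change of genes with low scores. A gene was called at a Benjamini-Hochberg adjusted p below 0.05 over all genes tested. The 6 libraries held an estimated 9750541 to 18323670 reads. On the first principal component, with 47.4% of the variance, the triple therapy libraries lay at -2.47 to 14.41, the contralateral ones at -64.89 to -55.09 and those of untreated tumour at 102.61 to 116.89. The tissue label was checked against 19 endothelial identity genes such as Pecam1 and Cdh5, which summed to 48103 to 57230 in triple therapy and 49011 to 63735 in contralateral libraries. Mitochondrial ribosomal RNA took 9.55 to 12.2% of the score after triple therapy, 14.5 to 15.8% in contralateral tissue and 21.5 to 33.2% in untreated tumour. Its part in the results was not tested beyond a rescaling without such genes, under which 787 genes were higher and 146 lower. The same rescaling moved triple therapy against untreated tumour from 3390 higher and 2950 lower genes to 2448 and 4163. Counts of list members against untreated tumour are given with the main scaling only. In these bulk libraries, fewer cells of a type and less RNA per cell cannot be told apart.

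Vessels of the treated tumour region differed from contralateral vessels mainly upwards. Of the 19668 genes tested 978 were called (4.97%), of which 816 were higher (4.15%) and 162 were lower (0.824%) after triple therapy, and 83.4% of the calls were higher. The median of the higher calls was 1.85 and that of the lower calls was -0.94 on the log2 scale, and 646 of the higher against 76 of the lower genes had changed more than 2-fold. Immune, interferon, antigen presentation and cell division lists held many of their members as higher calls, although most of the higher genes were in none of these lists, and lists of barrier, mural and endothelial identity genes held between 0 and 3 calls each. Genes near 0 in contralateral tissue could enter the test only through other groups, so the share of such genes called higher is partly fixed by the filter. Leaving out 1 of the 6 libraries gave 522 to 718 higher and 73 to 105 lower genes, the lowest of both without triple therapy replicate 2 and the most lower genes without contralateral replicate 1. Libraries of other groups entered through this filter and through the shared spread. With the same genes tested, 976 were higher and 335 lower without dual therapy replicate 2 and untreated tumour replicate 2. The counts were 942 and 266 without dual therapy replicate 2 and untreated tumour replicate 1. Each library of the latter pair lay farthest from its group on the second principal component. At an unadjusted p below 0.05, 9.5% of the genes tested were higher and 5.95% lower, the background for such counts below. Untreated tumour, tested against the same contralateral libraries, had 42.5% of the genes called. Triple therapy against sham had 9.73% called, 5.49% as higher and 4.24% as lower.

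**Figure D1:**
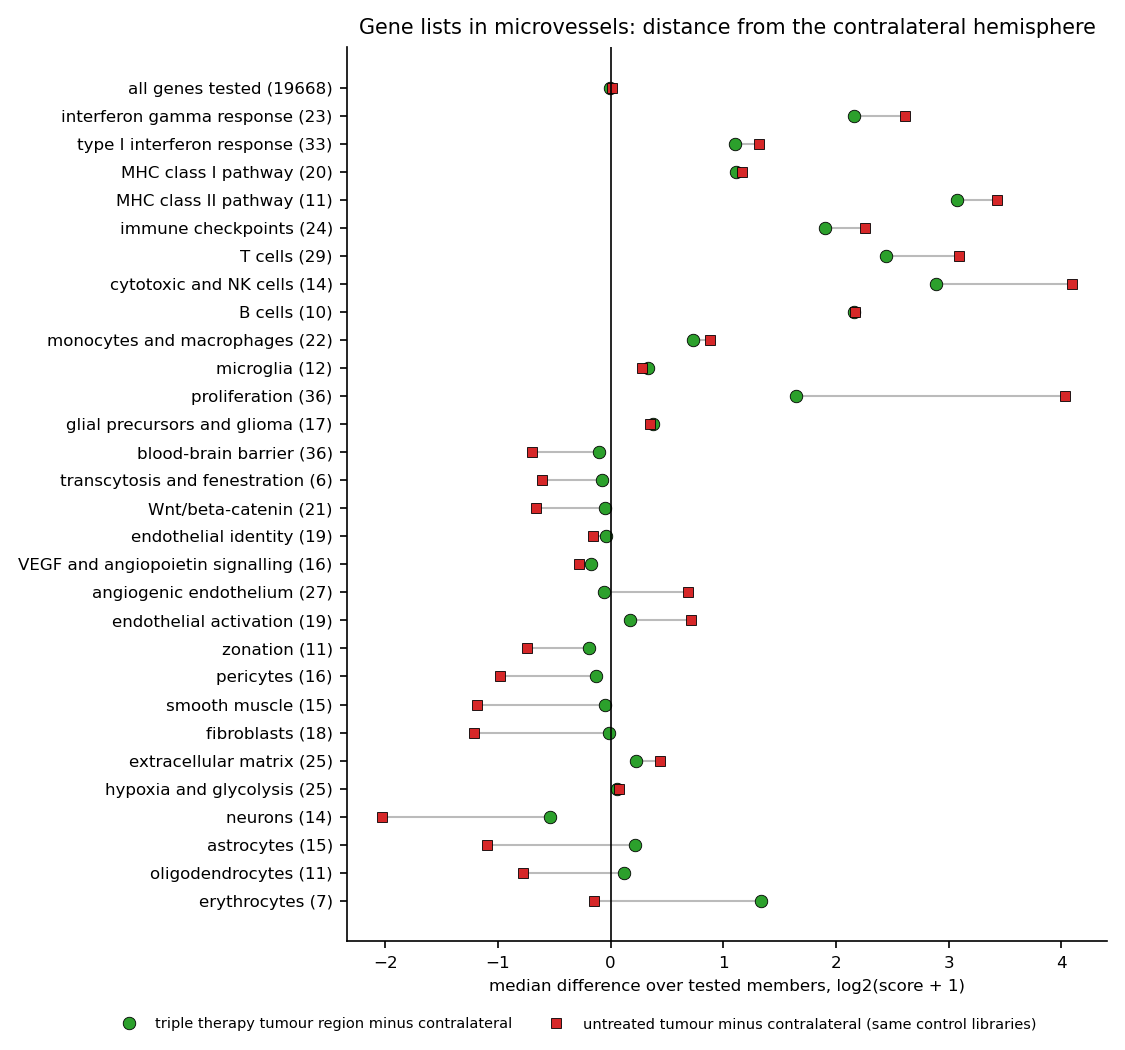
Median difference from the contralateral libraries, in log2(score + 1), over the tested members of 29 gene lists and over all genes tested, with the number of members in brackets. Circles are triple therapy and squares are untreated tumour, which share the 3 contralateral libraries. Immune lists lie to the right for both, whereas barrier and mural lists lie nearer 0 for triple therapy, as with pericytes at -0.13 against -0.98.

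Interferon gamma response genes were higher after triple therapy in 23 of 23 (17 by voom), with a median of 2.16 against -0.01 over all genes tested. Gbp2b (ENSMUSG00000040264, chromosome 3, 142594847 to 142619179, plus strand, GRCm38), a guanylate-binding protein of cell-autonomous defence, scored 208, 320 and 39 in the triple therapy libraries and 4, 2 and 0 in the contralateral ones. Replicate 3 of triple therapy was the lowest of its group, yet it stood above every contralateral library, and Gbp2b was listed at 0 in the 3 sham libraries. The difference of 5.82 ± 0.65 (SE, adjusted p = 2.15e-05) was called in limma, while voom on approximate reads did not call it. Gbp10 scored 215, 362 and 62 after triple therapy and 1, 6 and 5 in contralateral vessels (5.28 ± 0.71, adjusted p = 0.000115), with the same order of libraries and likewise no call by voom. Reads of the guanylate-binding proteins may be split between near-identical copies, so their single values are uncertain.

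Genes of the same family with high basal scores had smaller differences. Gbp3 scored 1541, 1376 and 1509 in contralateral libraries and 3966, 5795 and 3264 after triple therapy, a difference of 1.52 ± 0.15 (adjusted p = 6.48e-06). Gbp2 went from 1282, 1324 and 1224 to 5677, 11094 and 3289 (2.21 ± 0.28), again highest in replicate 2 and lowest in replicate 3 of triple therapy. Irgm1 (ENSMUSG00000046879, chromosome 11, 48865245 to 48871420, minus strand), an immunity-related GTPase that acts on membranes around intracellular pathogens, scored 888, 771 and 812 and 2714, 4215 and 2009 (1.79 ± 0.21, adjusted p = 3.6e-05). Ubd, with low basal scores, a ubiquitin-like protein induced by interferon gamma and TNF, went from 16, 6 and 10 to 373, 690 and 120 (4.85 ± 0.55, adjusted p = 2.3e-05, no call by voom). For each of these 4 genes the triple therapy libraries lay above the contralateral ones without overlap. Ifng itself scored 22, 33 and 1 after triple therapy and 4, 0 and 0 in contralateral libraries, with replicate 3 of triple therapy inside the contralateral range, and it was not called (2.76 ± 0.94, adjusted p = 0.115), although it was without that library (adjusted p = 0.00616).

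The promoters of Gbp3, Gbp2b and Irgm1 are shown as examples. They were picked in order of adjusted p among called interferon and MHC class I genes whose promoter held the motif marked below. Its presence in them was thus fixed by the choice. The sequences are the 250 bases before the annotated start in RefSeq (GRCm38.p6), at chr3:142559794-142560043 on the plus strand for Gbp3, chr3:142594597-142594846 on the plus strand for Gbp2b and chr11:48871421-48871670 on the minus strand for Irgm1. Capitals mark the interferon-stimulated response element, searched as GAAA, 2 bases of any kind and GAAA on both strands, so TTTC, 2 bases and TTTC is the same motif read from the other strand, and overlapping matches run together.
Gbp3: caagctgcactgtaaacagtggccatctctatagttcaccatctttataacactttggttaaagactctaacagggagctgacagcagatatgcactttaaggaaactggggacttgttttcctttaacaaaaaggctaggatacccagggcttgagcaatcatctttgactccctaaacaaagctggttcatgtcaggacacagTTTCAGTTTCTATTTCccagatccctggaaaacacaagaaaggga
Gbp2b: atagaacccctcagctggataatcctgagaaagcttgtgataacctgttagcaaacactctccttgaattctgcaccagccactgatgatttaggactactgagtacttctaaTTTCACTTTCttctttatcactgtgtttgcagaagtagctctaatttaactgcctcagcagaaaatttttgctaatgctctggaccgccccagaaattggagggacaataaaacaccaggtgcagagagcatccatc
Irgm1: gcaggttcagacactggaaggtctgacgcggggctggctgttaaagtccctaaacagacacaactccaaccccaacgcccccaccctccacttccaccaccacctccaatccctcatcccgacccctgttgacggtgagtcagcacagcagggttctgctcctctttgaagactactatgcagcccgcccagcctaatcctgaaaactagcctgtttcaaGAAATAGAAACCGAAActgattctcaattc
In windows from 250 bases before to 50 after the start, this motif stood in 70.6% of 17 promoters of interferon gamma response genes and in 53.8% of 26 promoters of type I interferon genes. Among genes called higher it stood in 13.3% of 727 promoters, among those called lower in 5.66% of 106, and among the genes tested in 3.28% of 15680. The STAT motif TTCNNNGAA stood in 41.2% of the interferon gamma response promoters and in 7% of those of the genes tested. RefSeq promoters matched 12301 of the 19659 tested symbols, 15 of 23 interferon gamma response genes and 23 of 33 type I interferon genes. A match to these letters is a description of sequence only.

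Type I interferon response genes, which encode antiviral sensors, regulators and effectors, were higher in 32 of 33 (31 by voom), with a median of 1.10. All 5 regulators, all 4 sensors and 23 of 24 effectors were called. Irf7 (ENSMUSG00000025498, chromosome 7, 141262706 to 141266481, minus strand), the transcription factor that amplifies interferon output, scored 349, 456 and 448 in contralateral libraries and 1295, 1843 and 1306 after triple therapy, a difference of 1.81 ± 0.15 (adjusted p = 2.58e-06). Its libraries within a group lay close together and the groups did not overlap. Zbp1, a sensor of nucleic acids, went from 69, 27 and 54 to 425, 692 and 256 (3.15 ± 0.34, adjusted p = 1.68e-05), the largest difference in the list. Smaller differences were measured for Ifi44 (1.29 ± 0.15), Oasl2 (1.08 ± 0.15), Bst2 (1.47 ± 0.21) and Parp14 (0.93 ± 0.12), each called. Ifitm3, a membrane protein that hinders virus entry, scored 721, 988 and 679 against 1109, 1243 and 1077 and was the one member not called (0.54 ± 0.23, adjusted p = 0.242).

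Antigen presentation genes were higher for both MHC classes. Of 20 class I pathway genes 17 were higher (median 1.11, 16 by voom), among them all 9 chain genes and 7 of 10 for processing and loading. B2m (ENSMUSG00000060802, chromosome 2, 122147686 to 122153083, plus strand), the light chain of class I molecules, scored 9979, 8209 and 7601 in contralateral and 19952, 20679 and 16133 in triple therapy libraries (1.14 ± 0.16, adjusted p = 0.000159). Nlrc5, the transactivator of class I genes, went from 309, 190 and 240 to 1129, 1805 and 651 (2.18 ± 0.28), and untreated tumour stood above triple therapy at 5955, 3900 and 5434 (triple minus untreated -2.19 ± 0.28, adjusted p = 1.76e-05). Tap1, a subunit of the peptide transporter, went from 473, 440 and 425 to 1479, 2142 and 967 (1.70 ± 0.24, adjusted p = 0.000149). The members not called were Tapbpl, Psmb10 and Erap1, with differences of 0.57 ± 0.17, 0.50 ± 0.20 and 0.40 ± 0.11.

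Class II pathway genes, normally high in professional antigen-presenting cells, were higher in 9 of 11 with a median of 3.07. H2-Ab1 (ENSMUSG00000073421, chromosome 17, 34263209 to 34269418, plus strand), the beta chain of the class II molecule, scored 181, 104 and 91 in contralateral and 2208, 2294 and 1154 in triple therapy libraries (3.90 ± 0.35, adjusted p = 5.57e-06). The invariant chain gene Cd74 went from 287, 103 and 130 to 2408, 2919 and 1407 (3.77 ± 0.41) and H2-Aa from 192, 41 and 80 to 1231, 1372 and 849 (3.70 ± 0.50). Each of these had its lowest triple therapy value in replicate 3, far above the contralateral range. Neither H2-Oa nor H2-Ob, which tune peptide loading, was called (1.98 ± 1.04 and 2.35 ± 0.85), and both had scores below 40 in all 6 libraries. Against untreated tumour the median of the class II list was 0.04. MHC genes are near-identical in places, so reads may be split between them.

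**Figure D2:**
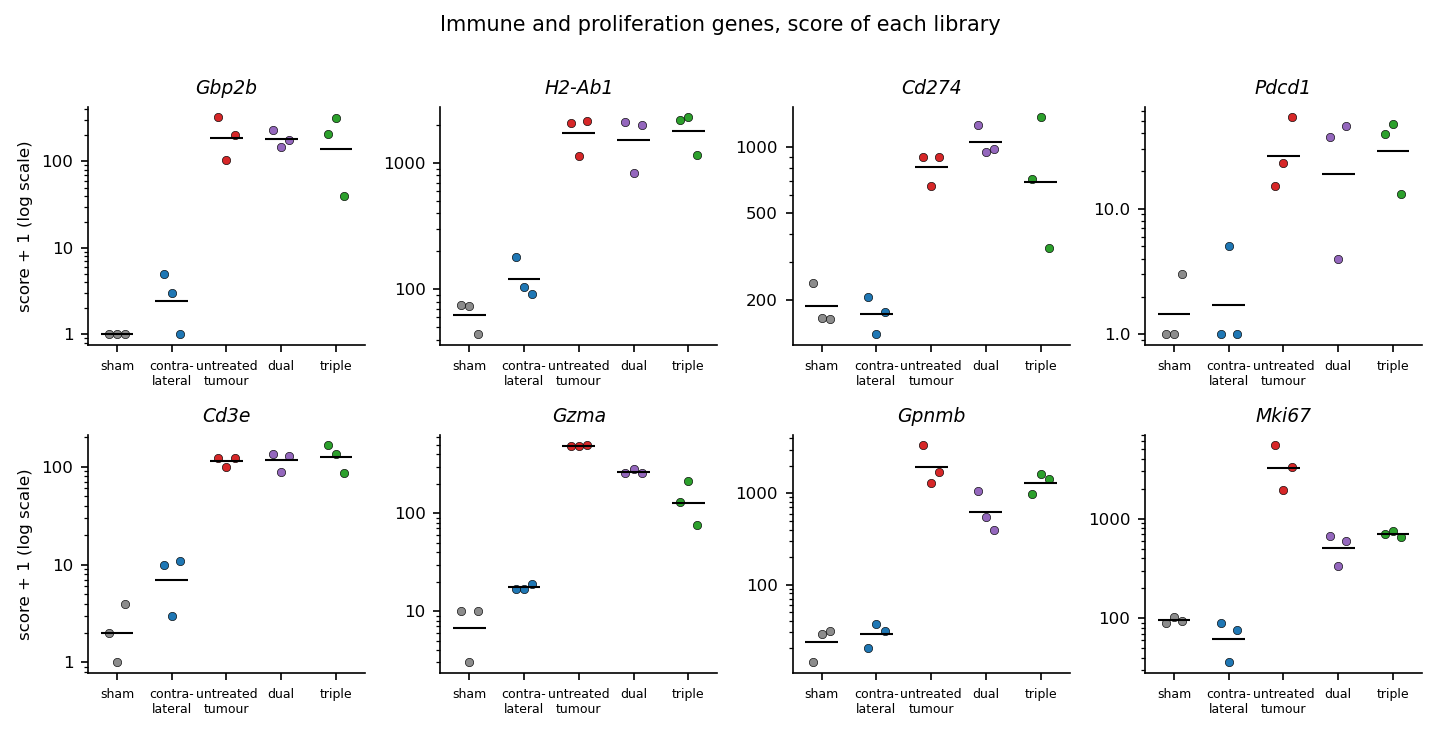
Score + 1 on a log axis in each of the 15 libraries for 8 genes, with points for libraries and bars for the mean of the log values of each group (n = 3). For all 8 genes the triple therapy libraries lie above the contralateral ones, and for Mki67 they lie below those of untreated tumour. On this axis Cd274 comes closest to overlap, with triple therapy replicate 3 nearest the contralateral range. Pdcd1 stood at 12 in triple therapy replicate 3 and at 4 in contralateral replicate 2.

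Immune checkpoint genes were higher in 16 of 24 with a median of 1.90, 10 of 12 receptors and 6 of 12 ligands or enzymes. The count rested on single libraries, since 10 were higher without contralateral replicate 2, 9 without triple therapy replicate 1, 8 without triple therapy replicate 2 and 6 by voom. Cd274 (ENSMUSG00000016496, chromosome 19, 29367455 to 29388095, plus strand), which encodes PD-L1, scored 206, 139 and 177 in contralateral libraries, 709, 1355 and 344 after triple therapy and 892, 662 and 892 in untreated tumour. The triple therapy libraries spread widely, with replicate 2 highest and replicate 3 lowest, but did not overlap the contralateral ones (2.0 ± 0.32, adjusted p = 0.000521). Pdcd1, the gene of the receptor that the antibody binds, scored 38, 46 and 12 after triple therapy and 0, 4 and 0 in contralateral libraries (4.07 ± 0.90, adjusted p = 0.00897). These low scores did not hold the call without contralateral replicate 3 (adjusted p = 0.0534), without triple therapy replicate 1 (adjusted p = 0.0544) or replicate 2 (adjusted p = 0.0656), or by voom.

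Further receptors of the checkpoint list were higher in each triple therapy library than in any contralateral one. Ctla4, a brake on T cell priming, went from 3, 3 and 3 to 58, 75 and 32 (3.73 ± 0.51, adjusted p = 0.000141). Icos, a costimulator of activated T cells, went from 3, 0 and 1 to 69, 77 and 25 (4.71 ± 0.68), and voom called neither Ctla4 (adjusted p = 0.0505) nor Icos (adjusted p = 0.0582). Havcr2, the gene of TIM-3, went from 30, 17 and 27 to 103, 130 and 75 (2.02 ± 0.28), and untreated tumour held 176, 159 and 205. Among the members not called were Entpd1, Vsir and Pvr, at -0.32 ± 0.14, 0.41 ± 0.12 and -0.04 ± 0.29. Pvr, a ligand of TIGIT, scored 710, 579 and 487 in untreated tumour and 180, 237 and 216 after triple therapy (-1.48 ± 0.29, adjusted p = 0.000839).

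T cell genes were higher in 21 of 29 tested, with a median of 2.44. The count was 13 by voom, 14 without triple therapy replicate 1 and 11 with a minimum score of 50. That minimum leaves 13594 genes in the test, so members with low scores can drop out untested. Cd3e (ENSMUSG00000032093, chromosome 9, 44998740 to 45009613, minus strand), a chain of the T cell receptor complex, scored 164, 135 and 86 after triple therapy and 9, 2 and 10 in contralateral libraries (4.18 ± 0.50, adjusted p = 4.53e-05). Il2rb, a receptor chain for interleukin-2 and interleukin-15, went from 11, 0 and 3 to 129, 169 and 70 (5.0 ± 0.61). The lineage genes Cd4 (70, 33 and 51 against 198, 274 and 165) and Foxp3 of regulatory T cells (4, 4 and 8 against 31, 24 and 24) were higher by 2.06 ± 0.38 and 2.16 ± 0.48. Cd8a went from 8, 3 and 7 to 50, 30 and 25 (2.39 ± 0.53, adjusted p = 0.00979), a call lost without contralateral replicate 2 (adjusted p = 0.0575) or triple therapy replicate 1 (adjusted p = 0.0755), while Foxp3 lost its call without triple therapy replicate 1 (adjusted p = 0.0563) and by voom. Among the members not called were Zap70, Tcf7 and Bcl11b, at -0.09 ± 0.35, 0.30 ± 0.14 and -0.33 ± 0.23, of which Bcl11b is also expressed in neurons.

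Cytotoxic and NK cell genes were higher in 12 of 14 tested, with a median of 2.88. The count was 8 by voom or without triple therapy replicate 1, 9 without contralateral replicate 3 or triple therapy replicate 2, and 6 with a minimum score of 50, where low-scoring members can likewise drop out untested. Gzma, a protease of killer granules, scored 130, 214 and 75 after triple therapy, 16, 16 and 18 in contralateral libraries and 484, 484 and 493 in untreated tumour. It was thus above contralateral tissue (2.87 ± 0.39, adjusted p = 0.000115) and below untreated tumour (-1.92 ± 0.39, adjusted p = 0.00104). Gzmb lay between the same groups, with 78, 135 and 31 against 24, 5 and 4 and 281, 324 and 241 (2.95 ± 0.57 and -2.0 ± 0.57), and was not called against contralateral tissue by voom. The NK cell receptor gene Ncr1 scored 9, 12 and 16 after triple therapy, 1, 0 and 0 in contralateral tissue and 45, 59 and 82 in untreated tumour, a difference of 3.37 ± 0.48 from the first and of -2.23 ± 0.48 from the second (adjusted p = 0.00169). Prf1, the pore former perforin, went from 4, 12 and 9 to 50, 60 and 33 (2.45 ± 0.43). Gzma, Gzmb, Ncr1 and Klrk1 were the 4 of 14 genes called lower than in untreated tumour, with a list median of -1.05, in a comparison where 15% of the genes tested were lower. Scores of the 17 members in the deposited table summed to 64 to 89 in contralateral and 1396 to 1580 in untreated libraries. Members near 0 in contralateral tissue, such as Ncr1, passed the filter on low scores through tumour libraries. For such members the filter helped to fix both counts.

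B cell genes were higher in 7 of 10 tested (median 2.16). The count fell to 4 without contralateral replicate 1 or replicate 3, and to 3 without triple therapy replicate 1 or by voom. Igkc, the constant part of the kappa light chain, scored 367, 54 and 176 after triple therapy and 6, 2 and 5 in contralateral libraries (4.93 ± 0.78, adjusted p = 0.000516, no call by voom). Ighm went from 64, 45 and 61 to 241, 147 and 165 (1.67 ± 0.27, adjusted p = 0.000624). Cd79a, a signalling chain of the B cell receptor, scored 38, 18 and 33 after triple therapy and was not called (0.64 ± 0.58).

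Of 8 monocyte genes 5 were higher, Ccr2, Ly6c2, Plac8, Ms4a4c and Lyz2, and of 9 macrophage genes 5, Gpnmb, Arg1, Fcgr1, Fcgr4 and Adgre1, whereas of 5 perivascular macrophage genes 0 were called in limma or by voom. Gpnmb (ENSMUSG00000029816, chromosome 6, 49036615 to 49070929, plus strand), a glycoprotein of lipid-laden and tumour-associated macrophages, scored 973, 1634 and 1418 after triple therapy and 19, 36 and 30 in contralateral libraries (5.53 ± 0.38, adjusted p = 1.48e-07). Arg1, an arginine-consuming enzyme of suppressive macrophages, went from 11, 17 and 7 to 201, 336 and 110 (4.03 ± 0.39). The monocyte genes Ccr2, Ms4a4c and Lyz2 were higher by 2.32 ± 0.35, 3.83 ± 0.62 and 2.08 ± 0.20. Mrc1, a scavenger receptor of perivascular macrophages, scored 2353, 2141 and 2440 and 2595, 2102 and 3045 and was not called (0.14 ± 0.14, 95% interval -0.16 to 0.45), while untreated tumour held 1277, 948 and 1052 (triple minus untreated 1.23 ± 0.14, adjusted p = 7.43e-06). Of 12 microglia genes tested 2 were higher, Cx3cr1 by 0.85 ± 0.18 and Csf1r by 0.75 ± 0.16, with 1 of them left without triple therapy replicate 1 or replicate 2. Of 5 neutrophil genes tested, Csf3r was higher (2.01 ± 0.43), except without triple therapy replicate 2 (adjusted p = 0.052) or by voom, and S100a9 scored 13, 11 and 2 against 4, 21 and 11 (-0.46 ± 0.70, adjusted p = 0.84).

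Cell division genes lay between contralateral tissue and untreated tumour. Of 36 proliferation genes 21 were higher than in contralateral libraries (median 1.65, 11 by voom), and 36 of 36 were lower than in untreated tumour (median -2.21, 15% of all genes tested). Of 22 mitosis genes 17 were higher (median 2.26), and of 14 replication genes 4 were higher (median 0.34), Mcm5, Cdc6, Cdt1 and E2f1. Mki67 (ENSMUSG00000031004, chromosome 7, 135689784 to 135716361, minus strand), the marker of cycling cells, scored 88, 35 and 75 in contralateral tissue, 703, 761 and 649 after triple therapy and 5465, 1933 and 3323 in untreated tumour. It differed from both, by 3.49 ± 0.33 (adjusted p = 6.48e-06) and by -2.22 ± 0.33 (adjusted p = 7.27e-05), and no libraries of the 3 groups overlapped. Top2a, which untangles chromosomes, went from 110, 37 and 40 to 544, 634 and 480 (3.30 ± 0.33), and the spindle motor gene Kif11 from 40, 25 and 27 to 152, 175 and 112 (2.22 ± 0.32). By contrast, the replication genes Pcna, Mcm4 and Mcm6 scored 427, 352 and 432, 481, 421 and 552 and 358, 392 and 442 after triple therapy, and were not called (-0.07 ± 0.16, 0.13 ± 0.15 and 0.35 ± 0.14). These genes do not tell which cells of the vessel preparation were dividing.

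The promoters of Mki67 (chr7:135716380-135716629 on the minus strand) and Top2a (chr11:99024190-99024439 on the minus strand) are shown as examples of mitosis genes, again the 250 bases before the RefSeq start. They were picked in order of adjusted p among called mitosis genes whose promoter held both motifs marked here, so the presence of these motifs was fixed by the choice. Capitals mark the CCAAT box and the cell cycle homology motif TTTGAA, with ATTGG and TTCAAA as their other strand.
Mki67: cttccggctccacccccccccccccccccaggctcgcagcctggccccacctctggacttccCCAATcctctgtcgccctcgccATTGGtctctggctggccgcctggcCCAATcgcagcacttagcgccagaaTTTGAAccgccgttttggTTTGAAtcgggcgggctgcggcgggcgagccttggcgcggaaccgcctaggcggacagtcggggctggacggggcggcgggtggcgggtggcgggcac
Top2a: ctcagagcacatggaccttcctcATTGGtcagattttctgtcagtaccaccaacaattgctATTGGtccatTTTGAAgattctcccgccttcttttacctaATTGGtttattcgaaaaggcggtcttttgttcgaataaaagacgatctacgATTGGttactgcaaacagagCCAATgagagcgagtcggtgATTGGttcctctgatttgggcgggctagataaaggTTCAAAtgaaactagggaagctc
In the windows that run to 50 bases after the start, CCAAT stood in 88.2% of 17 mitosis promoters against 66.7% of 12 replication promoters and 37% of those of the genes tested. TTTGAA stood in 70.6% of the mitosis promoters, in 8.33% of the replication promoters and in 12.5% of those of the genes tested.

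The 4 genes of a list chosen on these libraries for a strong rise in untreated tumour were also above contralateral tissue (2 of 4 by voom). The choice fixes their place below untreated tumour and favours genes that are low in the same contralateral libraries, so neither comparison supports anything. H19, a non-coding RNA of fetal tissues, scored 157, 50 and 12 in contralateral tissue, 568, 870 and 814 after triple therapy and 6530, 5892 and 2938 in untreated tumour (triple minus contralateral 3.97 ± 0.57). Strc went from 8, 1 and 1 to 43, 81 and 38, with 1285, 569 and 892 in untreated tumour (3.98 ± 0.49). Nxf3 scored 52, 76 and 56 and Pet2 65, 98 and 92 after triple therapy, and voom called neither Strc nor Nxf3. Of 17 genes of glial precursors and glioma 6 were higher, Cd44 (1.87 ± 0.27) and Sox10 (2.01 ± 0.35) among them. The count was 2 without contralateral replicate 1, contralateral replicate 3 or triple therapy replicate 2, and 3 without triple therapy replicate 3. Olig2, a lineage factor of oligodendrocyte precursors and many gliomas, scored 55, 51 and 54, 89, 159 and 115 and 931, 368 and 592 in contralateral, triple therapy and untreated libraries (1.13 ± 0.28, adjusted p = 0.0236), and its call was lost without any 1 of 5 libraries, all but triple therapy replicate 1, and by voom.

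**Figure D3:**
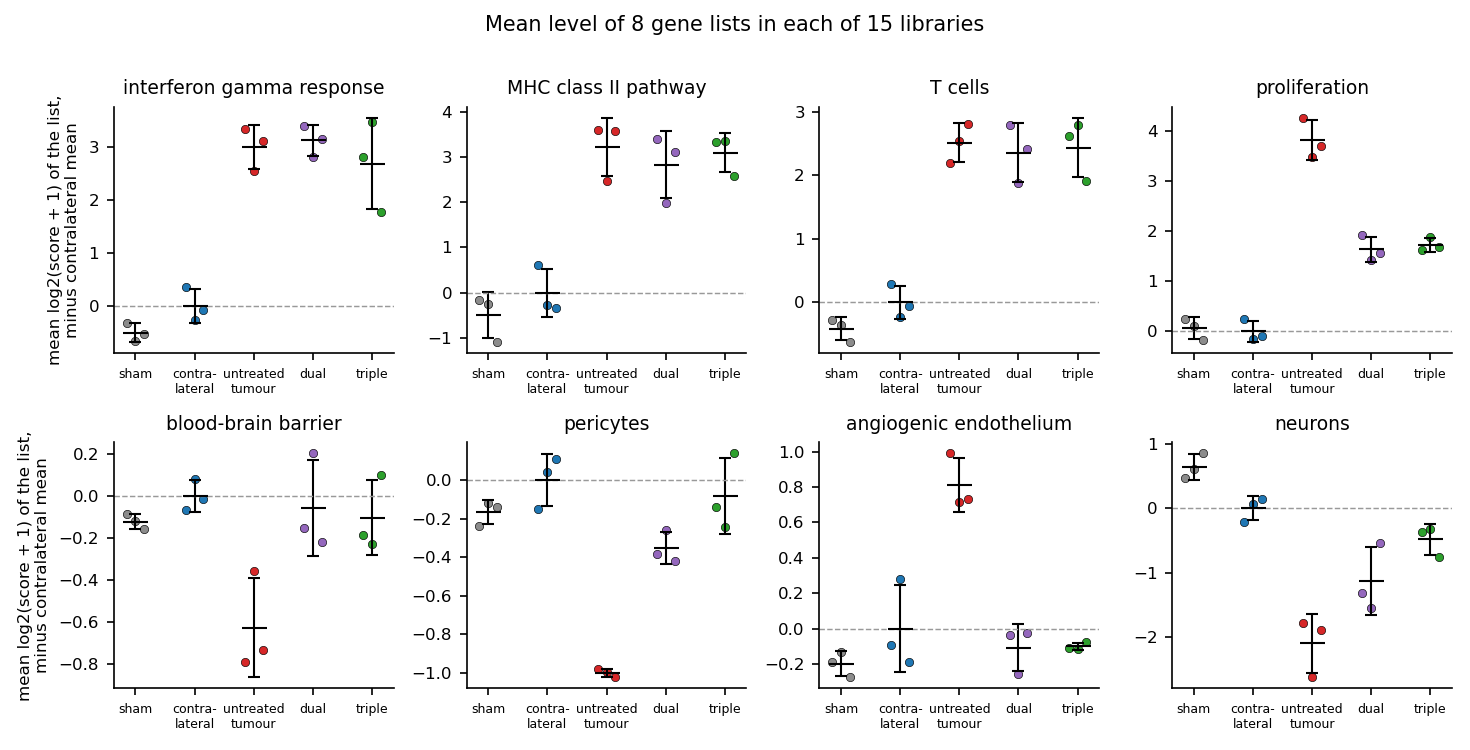
For 8 gene lists, the mean of log2(score + 1) is plotted by library (15 libraries), relative to the mean of the contralateral libraries, with the group mean ± SD (n = 3). Interferon, MHC class II and T cell lists are high in all tumour groups, proliferation after triple therapy lies between contralateral and untreated libraries, and barrier, pericyte and angiogenic lists after triple therapy lie around the contralateral level.

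Few barrier genes were called against contralateral tissue. Of 36 blood-brain barrier genes 3 were lower, 0 were higher in limma or by voom, and 2 were higher (5.56%, against 9.5% of all genes tested) and 7 lower (19.4%, against 5.95%) at an unadjusted p below 0.05. The lower count was 5 with quality weights and 1 without the mean-variance trend. The median was -0.10 after triple therapy, against -0.70 in untreated tumour, where 26 were lower than in the same contralateral libraries (21.4% of the genes tested). Tested directly, 22 of the 36 were higher after triple therapy than in untreated tumour. That comparison called 17.2% of the genes tested as higher and 15% as lower (53.5% of the calls higher, but 36.2% with endothelial identity scaling and 37% with scaling without mitochondrial genes). These scalings moved the median of all genes in it from -0.02 to -0.19 and -0.17.

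Transporters and junction genes show the levels behind these counts. Abcb1a (ENSMUSG00000040584, chromosome 5, 8660077 to 8748575, plus strand), the efflux pump P-glycoprotein, scored 19345, 19239 and 20007 in contralateral libraries and 16720, 15281 and 20361 after triple therapy, with a difference of -0.17 ± 0.14 (95% interval -0.48 to 0.13, adjusted p = 0.667). The libraries of the groups overlapped, while untreated tumour stood below both at 8441, 11915 and 9709 (triple minus untreated 0.80 ± 0.14, adjusted p = 0.000399). Slc2a1, the glucose transporter GLUT1, scored 36890, 38136 and 33574, 32060, 33302 and 38899 and 15054, 23590 and 17171 in the same 3 groups (-0.06 ± 0.18, interval -0.43 to 0.31). Cldn5 (ENSMUSG00000041378, chromosome 16, 18776847 to 18778260, plus strand), the main claudin of the brain endothelial junction, scored 6595, 8342 and 6420 and 5623, 4886 and 6310 (-0.34 ± 0.15, interval -0.65 to -0.04, adjusted p = 0.246). All 3 triple therapy values of Cldn5 lay below the contralateral ones, yet untreated tumour with 5085, 6915 and 5112 did not differ from triple therapy past the threshold (-0.02 ± 0.15, adjusted p = 0.942). Spock2, a proteoglycan, scored 34971, 37640 and 37776 and 36604, 37748 and 50766 (0.17 ± 0.17).

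Slc16a1 and Slc40a1 were among the 3 lower barrier genes. Slc16a1 (ENSMUSG00000032902, chromosome 3, 104638668 to 104658462, plus strand), the lactate and ketone transporter MCT1, scored 4213, 4837 and 5132 in contralateral libraries and 2192, 2720 and 3302 after triple therapy (-0.80 ± 0.17, adjusted p = 0.00538), without overlap, and sham libraries held 2798, 4085 and 3206. Its call stood at the limit without triple therapy replicate 1 (adjusted p = 0.0506). The iron exporter gene Slc40a1 differed by -0.62 ± 0.16 (adjusted p = 0.0316), a call lost without any 1 library except triple therapy replicate 3. Of the 3 calls, 1 was left without contralateral replicate 3 or triple therapy replicate 2, and 0 without triple therapy replicate 1.

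Vesicle transport genes were not called in 6 of 6, at an unadjusted p below 0.05 or by voom either (median -0.08). Mfsd2a, the lipid transporter that restrains vesicle formation, scored 577, 963 and 813 in contralateral and 743, 854 and 1251 in triple therapy libraries (0.27 ± 0.22, interval -0.20 to 0.74). Plvap, the diaphragm protein of leaky vessels, scored 789, 300 and 665 and 358, 320 and 438 (-0.55 ± 0.29, adjusted p = 0.394), and would be called lower without contralateral replicate 2 (-0.97, adjusted p = 0.0279), the lowest of its group. Of 21 Wnt/beta-catenin genes 0 were called in limma or by voom and 3 were lower at an unadjusted p below 0.05 (14.3%, against 5.95% of all genes tested), with a median of -0.05. Fzd4, the receptor for the brain vessel ligand norrin, scored 3799, 3324 and 3330 and 3380, 3665 and 4769 (0.16 ± 0.16), and Ctnnb1, the gene of beta-catenin, 9067, 10460 and 8696 and 8456, 7836 and 10796 (-0.07 ± 0.15). Against untreated tumour 16 of the 21 Wnt/beta-catenin genes were higher after triple therapy.

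**Figure D4:**
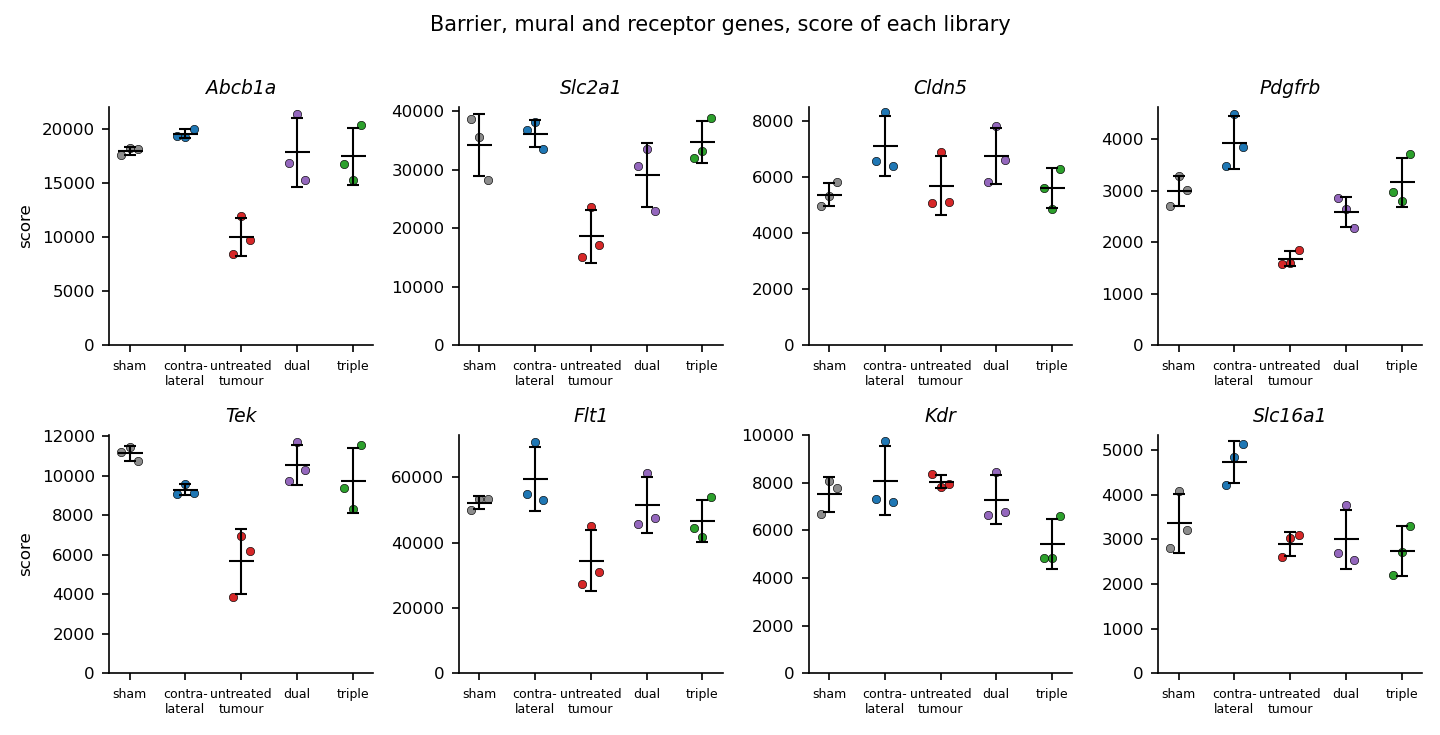
Scores of 8 barrier, mural and receptor genes in each of the 15 libraries, on linear axes from 0, with the group mean ± SD (n = 3). For Abcb1a, Slc2a1, Pdgfrb and Tek the triple therapy libraries lie near the contralateral ones and above those of untreated tumour, while Kdr and Slc16a1 are lower after triple therapy than in contralateral libraries.

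Of 19 endothelial identity genes 1 was lower, with a median of -0.04 that ran from -0.13 to 0.08 over the processing alternatives. At an unadjusted p below 0.05, 21.1% of the list were higher and 10.5% lower (9.5% and 5.95% of all genes tested). Pecam1 scored 11332, 11709 and 9872 and 9642, 8840 and 10701 (-0.17 ± 0.12), and Cdh5, the gene of VE-cadherin, 6753, 10625 and 6750 and 6321, 6359 and 8029 (-0.20 ± 0.15). The lower member was Clec14a (ENSMUSG00000045930, chromosome 12, 58264720 to 58269290, minus strand), a surface protein of sprouting endothelium, at 3318, 2658 and 2950 in contralateral and 1560, 1463 and 1658 in triple therapy libraries (-0.93 ± 0.11, adjusted p = 4.31e-05). The sham libraries of Clec14a held 1672, 2008 and 1811, with contralateral minus sham at 0.70 ± 0.11 (adjusted p = 0.00776) and triple minus sham at -0.23 ± 0.11 (adjusted p = 0.258). Both share libraries with the fall against contralateral tissue, so they are not separate support for it.

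Among ligands and receptors of the drug targets, 0 of 8 ligand genes and 1 of 8 receptor genes were called (list median -0.18, with 5 of 16 lower at an unadjusted p below 0.05, or 31.2% against 5.95% of all genes tested). Vegfa scored 206, 345 and 264 in contralateral libraries, 249, 274 and 211 after triple therapy and 607, 432 and 386 in untreated tumour, so that it was not called against the first (-0.13 ± 0.21, adjusted p = 0.858) and was lower than the last (-0.94 ± 0.21, adjusted p = 0.00241). Pgf, the gene of placental growth factor, scored 538, 506 and 465 and 414, 524 and 430 (-0.15 ± 0.16, adjusted p = 0.766). Angpt2, the angiopoietin of sprouting endothelium, scored 524, 1641 and 634 in contralateral libraries, with replicate 2 far above the others, and 743, 956 and 681 after triple therapy (-0.06 ± 0.34, interval -0.78 to 0.66). Its level in untreated tumour was 4009, 1971 and 1444 (triple minus untreated -1.52 ± 0.34, adjusted p = 0.00242). Angpt1, the Tie2 agonist made by mural cells, scored 692, 374 and 627, 519, 451 and 496 and 140, 291 and 312 in the same order of groups (-0.16 ± 0.25 and 1.06 ± 0.25).

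The VEGF receptor gene Kdr (ENSMUSG00000062960, chromosome 5, 75932827 to 75978458, minus strand) scored 7290, 9745 and 7203 in contralateral libraries, 4817, 4828 and 6614 after triple therapy, 8352, 7819 and 7943 in untreated tumour, 6640, 8450 and 6766 after dual therapy and 6687, 8061 and 7780 in sham libraries. Triple therapy was the lowest group, although its replicate 3 came near the others, and Kdr was called lower than in contralateral tissue (-0.58 ± 0.14, adjusted p = 0.0212), untreated tumour (-0.58 ± 0.14, adjusted p = 0.00447) and sham (-0.48 ± 0.14, adjusted p = 0.0385). Against dual therapy it was not called (-0.43 ± 0.14, adjusted p = 0.158). The call against contralateral tissue was lost without contralateral replicate 2 (adjusted p = 0.125), triple therapy replicate 1 (adjusted p = 0.125) or replicate 2 (adjusted p = 0.13), and with no mean-variance trend. The decoy receptor gene Flt1 scored 54855, 70883 and 53134 and 44534, 41668 and 53949 (-0.35 ± 0.18, interval -0.74 to 0.04), and Tek, the gene of Tie2, 9089, 9596 and 9137 and 9348, 8323 and 11569 (0.06 ± 0.17, interval -0.29 to 0.41). Both were uncalled, while Tek was above untreated tumour at 3835, 6950 and 6180 (0.82 ± 0.17, adjusted p = 0.00117).

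Genes of angiogenic endothelium went both ways against contralateral tissue, with 2 higher and 3 lower of 27 (4 and 4 with only the 2 groups fitted, 1 and 2 by voom) and a median of -0.06, where untreated tumour had a median of 0.69. Over all genes tested 4.15% were higher and 0.824% lower. The unadjusted shares were 18.5% higher and 14.8% lower (9.5% and 5.95% of all genes tested). In the direct test 17 of the 27 were lower after triple therapy than in untreated tumour and 1, Rgcc, was higher. Aplnr, the apelin receptor of sprouting endothelium, scored 65, 34 and 15, 41, 32 and 37 and 628, 460 and 674 in contralateral, triple therapy and untreated libraries (0.17 ± 0.37 and -3.95 ± 0.37, adjusted p = 1.18e-06 for the second). The second difference is the largest fall of this list against untreated tumour. Genes were also named by such falls, so it is not separate support. The basement membrane gene Col4a1 scored 10207, 15781 and 9169 and 11444, 12876 and 12641 (0.11 ± 0.16), against 21370, 18187 and 18752 in untreated tumour (-0.66 ± 0.16, adjusted p = 0.00363). The higher members were the cell cycle regulator Rgcc (0.96 ± 0.20, adjusted p = 0.00469) and the actin bundler Fscn1 (1.25 ± 0.32, adjusted p = 0.0239). Fscn1 lost its call without contralateral replicate 1 (adjusted p = 0.0786), contralateral replicate 3 (adjusted p = 0.131), triple therapy replicate 1 (adjusted p = 0.119) or replicate 2 (adjusted p = 0.115), and by voom. The lower members were Igfbp3, Dll4 and Adm.

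The next genes are among the largest falls. Triple minus contralateral and contralateral minus sham use the same contralateral libraries, so genes picked for a fall tend to have high contralateral values. Sham scores and tests against sham are therefore given as description only. With only the 2 groups fitted, contralateral against sham called 0 genes. Igfbp3 (ENSMUSG00000020427, chromosome 11, 7206086 to 7213923, minus strand), a binding protein of insulin-like growth factors found in sprouting vessels, scored 5320, 2715 and 4626 in contralateral libraries, 1409, 1273 and 1357 after triple therapy, 11223, 6285 and 10560 in untreated tumour and 1903, 1933 and 1395 in sham libraries. It was lower than contralateral tissue (-1.59 ± 0.22, adjusted p = 0.000161) and untreated tumour (-2.75 ± 0.22, adjusted p = 5.62e-07), and the difference from sham was not called (-0.36 ± 0.22, adjusted p = 0.42). Ctgf (ENSMUSG00000019997, chromosome 10, 24595442 to 24598683, plus strand), a matricellular target of YAP, scored 2795, 3961 and 2718 in contralateral libraries, 1129, 1031 and 1195 after triple therapy and 670, 999 and 879 in sham (-1.48 ± 0.17, adjusted p = 3.6e-05). For Ctgf, contralateral minus sham was 1.89 ± 0.17 (adjusted p = 4.13e-05) and triple minus sham 0.41 ± 0.17 (adjusted p = 0.171). Kcnj2, the inward rectifier potassium channel of capillaries, scored 1122, 1880 and 1115 in contralateral, 520, 449 and 614 in triple therapy and 635, 607 and 758 in sham libraries (-1.34 ± 0.17, adjusted p = 8.65e-05).

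Contralateral replicate 2 was the highest library of its group for several further genes, though the lowest for Igfbp3. For Dll4, the Notch ligand of tip cells, the contralateral scores were 1035, 2298 and 1144, those after triple therapy 521, 487 and 787 and those of sham 546, 677 and 613, and the difference of -1.25 ± 0.23 (adjusted p = 0.0021) was -0.90 without that library (adjusted p = 0.00762). Nr4a1, an immediate early transcription factor, scored 532, 1177 and 605, 168, 213 and 248 and 193, 376 and 346, and its difference of -1.80 ± 0.27 (adjusted p = 0.000342) was -1.45 without it (adjusted p = 0.00203). Adm, the vasodilator adrenomedullin, scored 92, 327 and 93 and 45, 48 and 39 (-1.66 ± 0.46, adjusted p = 0.0401), and Cyr61, another YAP target, 430, 918 and 394 and 170, 250 and 217 (-1.35 ± 0.30, adjusted p = 0.00884). Without contralateral replicate 2 the calls of Adm (adjusted p = 0.225) and Cyr61 (adjusted p = 0.0574) were lost. Adm also lost its call without any 1 of the triple therapy libraries and by voom, and Cyr61 without triple therapy replicate 1 (adjusted p = 0.0617).

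Other falls were in genes not called between contralateral and sham libraries. Btnl9, a butyrophilin-like gene of capillary endothelium, scored 153, 72 and 117 in contralateral, 32, 37 and 31 in triple therapy and 210, 197 and 123 in sham libraries (-1.68 ± 0.37, adjusted p = 0.00884, and contralateral minus sham -0.66 ± 0.37), a call lost without contralateral replicate 1 (adjusted p = 0.0608). Gkn3 (ENSMUSG00000030048, chromosome 6, 87383256 to 87388935, minus strand), a marker of arterial endothelium in the mouse brain, scored 1371, 1165 and 1208, 639, 453 and 801 and 1391, 1120 and 1161, with no overlap between triple therapy and either control (-1.02 ± 0.21, adjusted p = 0.00473, and -0.99 ± 0.21 against sham). Efnb2, the arterial ephrin, differed by -0.72 ± 0.20 (adjusted p = 0.0429), a call lost without any 1 of 5 libraries, all but triple therapy replicate 3. These were the 2 lower of 11 zonation genes, whose median was -0.20, where 0.824% of all genes tested were lower. At an unadjusted p below 0.05, 36.4% of the zonation genes were lower (5.95% of all genes tested) and 0% higher (9.5%). The arterial genes Sema3g and Jag1 were not called (0.13 ± 0.21 and -0.05 ± 0.13).

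**Figure D5:**
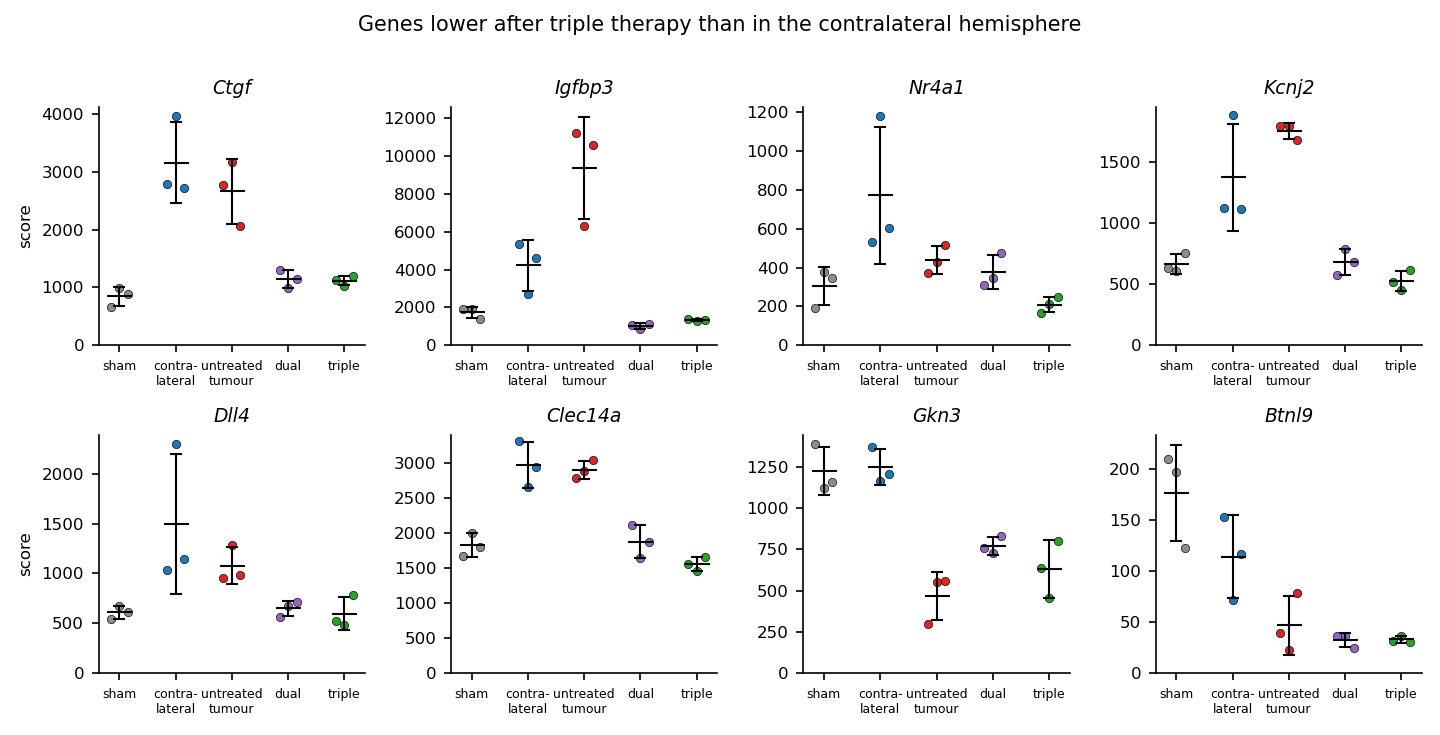
Scores of 8 genes that were lower after triple therapy than in contralateral libraries, in each of the 15 libraries, on linear axes from 0, with the group mean ± SD (n = 3). For Ctgf, Kcnj2, Dll4 and Clec14a the triple therapy and sham libraries lie below the contralateral ones, whereas for Gkn3 and Btnl9 they lie below both controls.

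Endothelial activation genes were higher in 2 of 19, C3 and Selp, with a median of 0.17. At an unadjusted p below 0.05, 21.1% of the list were higher and 15.8% lower (9.5% and 5.95% of all genes tested). The complement gene C3 (ENSMUSG00000024164, chromosome 17, 57203970 to 57228136, minus strand), also made by macrophages and astrocytes, scored 186, 103 and 54 in contralateral libraries, 4373, 3558 and 2009 after triple therapy, 1532, 790 and 2128 in untreated tumour and 33, 20 and 23 in sham (4.95 ± 0.46, adjusted p = 6.48e-06). Triple therapy minus untreated tumour was 1.20 ± 0.46 for C3 (adjusted p = 0.0527). Selp, the leukocyte-rolling receptor P-selectin, scored 11, 17 and 3 and 47, 90 and 37 (2.53 ± 0.65, adjusted p = 0.027), a call lost without contralateral replicate 3 (adjusted p = 0.174), triple therapy replicate 1 (adjusted p = 0.0723) or replicate 2 (adjusted p = 0.159), and by voom. Without triple therapy replicate 3 the count was 4. The adhesion molecule gene Vcam1 scored 4818, 3328 and 4023 and 5333, 5231 and 3756 and was not called (0.23 ± 0.19, adjusted p = 0.652), nor was Vwf with 22767, 18102 and 16283 and 13712, 13550 and 13024 (-0.49 ± 0.17, adjusted p = 0.131).

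Mural cell genes were not called in limma: 0 of 16 pericyte genes and 0 of 15 smooth muscle genes, by voom likewise 0, with 1 lower in each at an unadjusted p below 0.05 (6.25% and 6.67%, against 5.95% of all genes tested). Their medians were -0.13 and -0.05, and the medians against untreated tumour were 0.85 and 1.05, with 15 of 16 and 12 of 15 higher. Pdgfrb, the receptor that holds pericytes on vessels, scored 3475, 4484 and 3838 in contralateral libraries, 2975, 2797 and 3706 after triple therapy and 1585, 1604 and 1845 in untreated tumour. Triple therapy overlapped the contralateral range (-0.32 ± 0.13, interval -0.59 to -0.05) and lay above untreated tumour (0.91 ± 0.13, adjusted p = 4.55e-05). Rgs5, a pericyte regulator of G protein signals, scored 35227, 45216 and 39962, 39894, 35874 and 47017 and 14627, 19529 and 17800 (0.03 ± 0.15 and 1.24 ± 0.15). Acta2, smooth muscle actin, scored 16582, 11819 and 12257, 14920, 14359 and 13854 and 3043, 8117 and 8263 (0.10 ± 0.26 and 1.29 ± 0.26).

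Fibroblast and matrix genes gave few calls, all higher, where 4.15% of all genes tested were higher. At an unadjusted p below 0.05, 16.7% of the fibroblast and 24% of the matrix genes were higher, against 9.5% of all genes tested. Lower were 11.1% and 0%, against 5.95%. Of 18 fibroblast genes 2 were higher (median -0.02), the collagen genes Col3a1 (1.03 ± 0.18, adjusted p = 0.0014) and Col1a1 (0.79 ± 0.20, adjusted p = 0.0268). Col3a1 scored 800, 986 and 868 in contralateral and 1762, 1785 and 1860 in triple therapy libraries, and Col1a1 lost its call without any 1 library except contralateral replicate 3. Of 25 matrix genes 3 were higher (median 0.22): Tnc, the tenascin of gliomas, from 68, 102 and 61 to 303, 523 and 301 (2.26 ± 0.38, no call by voom), Vcan, a proteoglycan, from 475, 509 and 410 to 1300, 1479 and 1428 (1.60 ± 0.25), and Mmp2, a protease of basement membrane, from 80, 70 and 55 to 228, 236 and 223 (1.75 ± 0.32). In untreated tumour Tnc scored 2395, 563 and 1613 and Vcan 5629, 2004 and 2733, and triple therapy was lower for both (-1.83 ± 0.38 and -1.16 ± 0.25). Fn1 scored 37991, 40462 and 34385 and 44562, 43485 and 43506 and was not called (0.22 ± 0.16).

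Hypoxia and glycolysis genes were higher in 2 of 25 (median 0.05). At an unadjusted p below 0.05, 12% of the list were higher and 8% lower (9.5% and 5.95% of all genes tested). Hk2, the inducible hexokinase, went from 59, 79 and 49 to 187, 276 and 142 (1.65 ± 0.30, adjusted p = 0.00155), and Pfkfb3, a glycolytic activator, from 1041, 798 and 790 to 1447, 1889 and 1022 (0.70 ± 0.19, adjusted p = 0.0387). The call of Pfkfb3 was lost without contralateral replicate 2 (adjusted p = 0.133), contralateral replicate 3 (adjusted p = 0.166), triple therapy replicate 1 (adjusted p = 0.127) or replicate 2 (adjusted p = 0.248), and by voom. Ndrg1, another hypoxia target, scored 7858, 6716 and 7015 and 7188, 7572 and 8532 (0.11 ± 0.16).

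Markers of other brain cells were measured in the same libraries, and their part in the other results was not tested. Of 14 neuron genes 0 were called in limma, 1 was lower by voom and 5 were lower at an unadjusted p below 0.05 (35.7%, against 5.95% of all genes tested), with a median of -0.53. With only the 2 groups fitted 4 were called lower, 5 with the replicate block in them and 3 with quality weights. Their summed score was 9505 to 13841 after triple therapy, 14542 to 17407 in contralateral, 21723 to 29785 in sham and 2682 to 5148 in untreated libraries, so triple therapy did not overlap any of these. Camk2a, a kinase of excitatory neurons, scored 3810, 4141 and 4115 and 3692, 3450 and 2687 (-0.31 ± 0.22, adjusted p = 0.597). Of 15 astrocyte and 11 oligodendrocyte genes 0 were called in limma or by voom (medians 0.21 and 0.12), with 3 astrocyte genes higher (20%, against 9.5% of all genes tested) and 0 oligodendrocyte genes called at an unadjusted p below 0.05. Slc1a2, the glutamate transporter of astrocytes, scored 26970, 34276 and 29332 and 31528, 29857 and 24726 (-0.07 ± 0.26), and Mbp of myelin 4082, 5165 and 5247 and 3084, 7386 and 2365 (-0.35 ± 0.54). For 7 ependyma and choroid plexus genes tested 0 were called in limma, by voom or at an unadjusted p below 0.05, and their summed score spread from 26559 to 79572 after triple therapy.

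Erythrocyte genes were higher in 5 of 7 (median 1.33), Hba-a1, Hba-a2, Hbb-bs, Hbb-bt and Alas2 (all but Hba-a1 also by voom), with summed scores of 3788 to 6356 after triple therapy, 1433 to 2949 in contralateral and 3280 to 4130 in sham libraries. Alas2, the first enzyme of haem synthesis in red cells, scored 507, 888 and 546 in contralateral, 1353, 1416 and 2057 in triple therapy and 1004, 1468 and 1518 in sham libraries (1.33 ± 0.32, adjusted p = 0.0178, and 0.27 ± 0.32 against sham). The count was 1 without contralateral replicate 1, 0 without contralateral replicate 3, 3 without triple therapy replicate 2 and 1 without triple therapy replicate 3. Near-identical haemoglobin genes may share reads.

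Triple and dual therapy were compared in the same fit to test whether their distances from contralateral tissue differed. Of the genes tested 171 were called (0.869%), 103 higher (0.524%) and 68 lower (0.346%) after triple therapy, and the count was 0 without dual therapy replicate 2 or triple therapy replicate 1. The median difference was -0.47 for interferon gamma response, -0.08 for checkpoint, 0.10 for proliferation, -0.02 for barrier and 0.23 for pericyte genes. Cd274 scored 1258, 945 and 974 after dual therapy and 709, 1355 and 344 after triple therapy (-0.60 ± 0.32, interval -1.27 to 0.07), and Abcb1a 16808, 21402 and 15270 and 16720, 15281 and 20361 (-0.03 ± 0.14, interval -0.33 to 0.28).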

How the data were processed

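The deposited table holds a score per gene and library: whole numbers that behave like read counts the authors scaled and rounded, so no count model was the main test. Per the labels' protocols, 100 ng of total RNA went into stranded libraries (SMARTer Stranded Total RNA kit). The submitters' processing notes name STAR 2.4.0a, featureCounts 1.4.5-p1 and DESeq2, and mouse build mm10 (GRCm38), without their order, while the strand setting of the counting was not given in the sources used here. Overlapping antisense genes therefore cannot be told apart. Genes reaching a score of 10 in 3 or more of 15 libraries were fitted as log2(score + 1) with limma 3.58.1 (R 4.3.3), 1 mean per group and a mean-variance trend (degrees of freedom: 10 residual, 8.26 prior), and Benjamini-Hochberg adjustment over 19668 genes, leaving out 7506. The scripts were tested on simulated data. Each group has 3 biological replicates, each pooled from 3 mice, per the design text. Reads were estimated from the steps between low scores, an estimate that on simulated data was off by some percent in the libraries where 1 read was worth close to 1 or another simple fraction of a score unit, and voom on these approximate reads was an alternative, beside other pseudocounts, filters, scalings, weights, sample sets and the replicate block. The members and lists were chosen with earlier results of these data known. Named genes are the largest called changes without overlap, against contralateral tissue and against untreated tumour. Others are up to 6 called and 3 high uncalled members per list, a set of drug target, barrier and T cell genes, and genes called the same way against every other group. Members named only to complete a short count (such as Plac8, Cdc6 or E2f1), and the choice among rule-named genes printed here, came after their values were seen. Promoters are from RefSeq, GRCm38.p6.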

Additional observations from a re-analysis of the deposited data

How the results depend on the processing

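The 816 higher genes of triple therapy against contralateral tissue became 1316 with quality weights and 502 by voom, and 522 to 718 without 1 library. The 162 lower genes became 364 with only the 2 groups fitted, 534 with quality weights, 100 without the mean-variance trend, 95 with endothelial identity scaling, 100 among protein-coding genes, 335 without dual therapy replicate 2 and untreated tumour replicate 2, 266 without dual therapy replicate 2 and untreated tumour replicate 1, and 73 to 105 without 1 library. The protein-coding and both 2-library settings were chosen after seeing the data. The replicate numbers did not pair the libraries (correlations of deviations 0.04, 0.06 and -0.07 for the same-numbered pairs, and not every library correlated best with its own number). The replicate block gave 811 higher and 152 lower genes, and 929 and 353 when fitted with only the 2 groups compared. Against untreated tumour the 3390 higher genes became 3382 with the block, 2201 with the block and only 2 groups, and 1892 with endothelial identity scaling. Triple against dual therapy, at 171 called genes, gave 169 with the block, 31 with only 2 groups, 0 with the block in them, 14 without the trend, 327 with quality weights, 0 with endothelial identity scaling, 95 without mitochondrial genes in the scaling and 0 to 276 without 1 library. Triple therapy against sham, at 1913, gave 1958 with the block, 3197 with only 2 groups, 3016 with the block in them, 3224 with quality weights, 1222 with endothelial identity scaling and 1103 to 1551 without 1 library. Contralateral against sham, at 85, gave 102 with the block, 0 with only 2 groups, 206 with the block in them, 8 without the trend, 631 with quality weights, 41 with endothelial identity scaling and 22 to 63 without 1 library. The cause of these shifts was not tested. Without the mean-variance trend Adm, Alas2, Col1a1, Cyr61, Efnb2, Fkbp5, Fscn1, Kdr, Olig2, Pfkfb3, Selp, Slc40a1 and 3 haemoglobin genes lost their calls against contralateral tissue, and with endothelial identity scaling Col1a1, Csf1r, Olig2 and Pfkfb3 did. Of 5166 results for 236 named genes against contralateral tissue, 95.2% kept their side of the threshold, and 178 in 50 genes lost and 68 in 20 genes gained a call. Of those called in the main or the alternative fit 0 changed direction. Changes of direction in results uncalled in both fits were not counted. Genes with low scores, such as Pdcd1, rest on few reads, and 3 pools a group limit the precision.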

Other observations

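Fkbp5, a glucocorticoid-induced chaperone partner of steroid receptors, scored 1026, 1116 and 862 after triple therapy, 711, 267 and 428 in contralateral, 354, 435 and 446 in untreated, 542, 332 and 305 in dual therapy and 717, 456 and 347 in sham libraries. The triple therapy libraries lay above those of every other group, and the gene was called against all 4. Being called against all 4 was among the rules by which genes were named, so these calls are not a separate finding. The differences were 1.20 ± 0.29 from contralateral (adjusted p = 0.0188), 1.28 ± 0.29 from untreated (adjusted p = 0.00265), 1.39 ± 0.29 from dual therapy (adjusted p = 0.0326) and 1.04 ± 0.29 from sham libraries (adjusted p = 0.0279), all of which share the triple therapy libraries. The call against contralateral tissue was lost without contralateral replicate 2 (adjusted p = 0.112), contralateral replicate 3 (adjusted p = 0.0656), triple therapy replicate 1 (adjusted p = 0.0723) or replicate 2 (adjusted p = 0.0944), and with no mean-variance trend. The call against dual therapy was lost without dual therapy replicate 2 or triple therapy replicate 1, where that comparison called 0 genes.

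A pair of cartilage-type collagen genes had large rises. Col2a1 scored 225, 442 and 427 after triple therapy, 331, 324 and 285 in untreated tumour, 11, 16 and 11 in contralateral and 14, 9 and 6 in sham libraries, a difference from contralateral tissue of 4.70 ± 0.34 (adjusted p = 2.11e-07). Col9a1 scored 80, 154 and 152, 491, 411 and 251, 6, 0 and 2 and 5, 2 and 3 in the same order (5.49 ± 0.60, adjusted p = 1.81e-05).

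Transcripts annotated as still to be verified experimentally (TEC) went against the overall direction: of 1631 tested, 3 were higher and 56 lower after triple therapy than in contralateral libraries, while of 14861 protein-coding genes 764 were higher and 94 lower.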
